A study of Mus musculus with 4 samples.

Results

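Conjugation enzymes attach glucuronic acid, glutathione, sulfate or an acetyl group to drugs, hormones and waste products, which makes most of them easier to excrete. The genes described here are 36 mouse genes of this kind, taken from a given list: 12 UDP-glucuronosyltransferases (UGTs), 19 glutathione S-transferases (GSTs), 3 sulfotransferases and 2 N-acetyltransferases. A probe was assigned to a gene where its RefSeq accession belonged to that gene, which gave 47 probes for 33 of the 36 genes. Ugt1a7c, Ugt1a9 and Gsta1 had no such probe. All 33 genes passed the filter on dim probes, and 32 were well above background on all 4 arrays. They are set beside the 24044 features tested on the whole array.

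Total RNA came from mouse kidneys taken 2 weeks after surgery. In bile duct ligation (BDL) the duct is tied, bile cannot leave the liver and cholestasis follows, while a sham operation leaves the duct intact. There were 2 BDL and 2 sham kidneys, called biological replicates in the series' design text, each on its own 1-colour array. No genetic change or drug is named for either group, and strain, sex and age are not given in the sources used here. The series' title asks how the kidney's handling of drugs adapts to cholestasis. Each value is the log2 of a probe's signal with the array's 75th percentile, also in log2, taken off. Each difference is the BDL mean minus the sham mean, so that a negative one means lower in BDL.

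In the kidney, conjugation takes place mostly in the proximal tubule, which takes up organic anions from the blood and releases their conjugates into the urine. UGTs sit in the membrane of the endoplasmic reticulum and use UDP-glucuronic acid, with the UGT1 and UGT2 families covering bilirubin, bile acids, steroids and many drugs. Most GSTs are soluble enzymes that join reactive molecules to glutathione, and the kidney then trims these conjugates to mercapturates. Sulfotransferases use activated sulfate (PAPS), which is made from the sulfate that the tubule reabsorbs. In bulk kidney RNA, fewer cells of a type and less RNA per cell cannot be told apart.

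The arrays had 57.7% to 63.1% of their spots well above background and 0 saturated spots. Pairwise, Pearson's r over the features ran from 0.974 to 0.985, and sham replicate 1 had the 3 lowest values (0.974, 0.978 and 0.979). It also held the highest of the 4 values for 16 of the 33 genes, and for 35.4% of all features. The tissue check held: all 12 listed markers of the first proximal tubule segments (S1 and S2), all 12 of the last segment (S3) and all 5 podocyte markers were well above background on at least 1 array of each group. All 5 podocyte markers (5 without overlap) and all 8 collecting duct markers (3 without overlap) were higher in BDL. So were all 3 distal convoluted tubule markers (1 without overlap), against 17.4% of all features higher without overlap. All 5 thick ascending limb markers were lower (2 without overlap, against 19.3% of all features). The part of these 4 lists in the results was not tested.

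The family with 1 direction in every member and the most members was UGT2B, a cluster of neighbouring genes on chromosome 5 whose enzymes glucuronidate steroids, bile acids and drugs. All 6 were lower on both BDL arrays than on both sham arrays, as were 19.3% of all features. Their group means were 1.37-fold to 1.86-fold lower, with a median difference of -0.82. At a limma adjusted p under 0.05, 0 of the 6 passed, as did 0% of all features. The 100 bases upstream of each start site are printed here (RefSeq, GRCm38.p6, 5′ to 3′). These genes stood lower together, and the sequences let the copies be compared. Capitals mark the one match to GTTANANTTTAAC, the longest pattern with at most 2 variable positions (N) that all 6 share, searched on both strands.
Ugt2b34, chr5:86906938-86907037, minus strand: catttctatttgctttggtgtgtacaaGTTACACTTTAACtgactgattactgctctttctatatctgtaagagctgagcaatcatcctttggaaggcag
Ugt2b35, chr5:87000760-87000859, plus strand: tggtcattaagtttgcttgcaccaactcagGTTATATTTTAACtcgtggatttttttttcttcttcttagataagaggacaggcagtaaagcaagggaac
Ugt2b36, chr5:87092556-87092655, minus strand: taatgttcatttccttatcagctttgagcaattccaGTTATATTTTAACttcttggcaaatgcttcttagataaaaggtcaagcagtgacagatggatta
Ugt2b37, chr5:87254789-87254888, minus strand: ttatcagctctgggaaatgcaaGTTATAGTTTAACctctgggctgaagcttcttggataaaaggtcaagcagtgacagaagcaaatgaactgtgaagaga
Ugt2b38, chr5:87424204-87424303, minus strand: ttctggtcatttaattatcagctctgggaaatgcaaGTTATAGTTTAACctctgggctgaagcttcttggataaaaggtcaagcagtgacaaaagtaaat
Ugt2b5, chr5:87140341-87140440, minus strand: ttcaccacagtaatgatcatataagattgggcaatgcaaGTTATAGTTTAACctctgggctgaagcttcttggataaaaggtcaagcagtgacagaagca

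The 13-base pattern was derived from these 6 promoters, so its presence in all of them is by construction. Its first base lay between 61 and 78 bases before the start site. Among 32851 RefSeq promoters it occurred in 10 (0.0304%), over the 250 bases before the start, and the other 4 belong to A1cf, Cnp, Cpb2 and Pklr. Over the same 250 bases the promoters of Ugt2b37 and Ugt2b38 were 85.2% identical, those of Ugt2b38 and Ugt2b5 81.5% and those of Ugt2b37 and Ugt2b5 73.0%. Promoters of the other pairs in the cluster were 50.2% to 60.4% identical. With no unrelated pair aligned beside them, these lower values do not by themselves show how closely the copies are related. Promoter identity does not show how alike the transcripts are, and probe sequences were not used. Probes of related genes can pick up each other's transcripts, which was not tested here. The 6 values are therefore uncertain as separate measurements and may not be independent of each other.

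Ugt2b5 read 3.97 and 4.36 on the BDL arrays, against 5.32 and 4.72 on the sham arrays. Ugt2b37 read 5.42 and 5.91 on the BDL arrays, against 6.69 and 6.24 on the sham arrays. For both genes the groups did not overlap, and sham replicate 1 was the highest array. Ugt2b5 was 1.82-fold lower in BDL (-0.86, SE 0.30, 95% interval -1.65 to -0.07, limma adjusted p = 0.872). Ugt2b37 was 1.74-fold lower (-0.80, SE 0.29, 95% interval -1.57 to -0.03, limma adjusted p = 0.872).

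Ugt2b36 showed the same order of arrays, with 3.81 and 4.18 in BDL, against 5.22 and 4.46 in sham (-0.84, SE 0.34). Ugt2b38 read 7.26 and 7.55 in BDL, against 8.43 and 7.79 in sham (-0.71, SE 0.30). In each of these genes BDL replicate 2 and sham replicate 2 lay close together, 0.28 apart for Ugt2b36 and 0.25 for Ugt2b38 with BDL the lower. Ugt2b35 read 0.31 and 0.93 in BDL, against 2.02 and 1.01 in sham (-0.89, SE 0.43), and its second probe was too dim to be retained. Ugt2b34 had the smallest difference of the 6 (-0.46, SE 0.23). It read 0.05 and 0.43 in BDL, against 0.75 and 0.64 in sham, and here the sham arrays lay close together.

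Without sham replicate 1 the family's median difference was -0.43, and the 6 differences lay between -0.57 and -0.39. Where the groups do not overlap, no left-out array can turn the sign, so the direction in these fits is no sign of stability. Markers of the S3 segment of the proximal tubule were lower in BDL too, 11 of 12 of them, against 51.4% of all features. Of these, 10 were lower without overlap, against 19.3% of all features, and the median difference of the 12 was -0.60. Their summed signal, in multiples of each array's 75th percentile, was 608 to 695 in BDL and 907 to 1131 in sham, and the median was -0.49 without sham replicate 1. The S1 and S2 markers had a median of 0.02, with a summed signal of 1380 to 1383 in BDL and 1240 to 1516 in sham. Of these 12, 8 were higher in BDL, 4 of them without overlap, against 17.4% of all features, and 0 were lower without overlap.

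Androgen-dependent kidney genes were lower in BDL in 10 of 12 measured members of 14 listed, against 51.4% of all features. Of these, 6 were lower without overlap, against 19.3% of all features (list median -0.40, and -0.23 without sham replicate 1). This list shares Cyp4b1, Cyp7b1 and Slc7a13 with the S3 markers, and each of these is among the 6, so the lists are not separate. The list's summed signal was 1150 to 1217 in BDL and 1368 to 1955 in sham. Hepatocyte markers, which matter because UGT2B genes are also liver genes, were lower in 8 of 11 measured members of 12 listed. Of these, 5 were lower without overlap, against 19.3% of all features (list median -0.70, and -0.33 without sham replicate 1). The summed signal of the hepatocyte list overlapped between the groups, at 305 to 336 in BDL and 259 to 367 in sham. Most of it came from Cyp2e1, which the proximal tubule also expresses. Apoa1 was the hepatocyte marker not retained, as it was not well above background on each array of either group. Each measured marker of these lists was well above background on at least 1 array of each group. The part of these 3 marker lists in the UGT2B values was not tested.

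**Figure D1:**
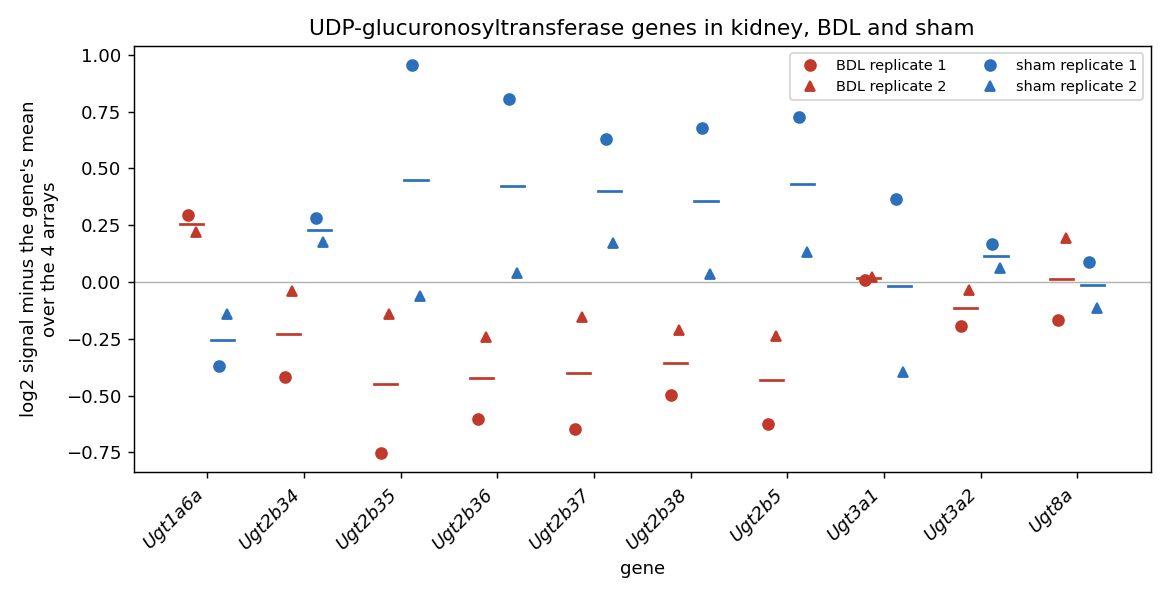
Log2 signal of the 10 measured UGT genes on each array, minus the gene's mean over the 4 arrays, with BDL (red) left of sham (blue), circles for replicate 1, triangles for replicate 2 and bars for group means (n = 2). The 6 Ugt2b genes lie lower in BDL with sham replicate 1 on top, while Ugt1a6a lies higher in BDL (0.51) and Ugt3a1 and Ugt8a differ by 0.03 each.

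Of the other 4 measured UGTs, Ugt3a2 was also lower in BDL without overlap, Ugt1a6a was higher, and Ugt3a1 and Ugt8a overlapped. Ugt1a6a, a phenol-conjugating enzyme, read -1.89 and -1.97 in BDL, against -2.55 and -2.33 in sham. It was higher in BDL without overlap, by 1.43-fold (0.51, SE 0.20, 95% interval -0.02 to 1.05, limma adjusted p = 0.872). With normexp background correction the difference of this dim probe was 0.31. Genes of the UGT1A locus share their downstream exons, and the listed neighbours Ugt1a6b (0.06, SE 0.21) and Ugt1a10 (0.30, SE 0.30) overlapped between the groups.

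Ugt3a1, whose human counterpart transfers N-acetylglucosamine, read 6.12 and 6.14 in BDL, against 6.48 and 5.72 in sham. Both BDL values lay between the sham values. Ugt3a2 read 7.36 and 7.52 in BDL, against 7.72 and 7.62 in sham, a gap of 0.10 between the nearest arrays (-0.23, SE 0.20), and its second probe gave 0.06 with overlap. Ugt8a, the ceramide galactosyltransferase that makes galactosylceramide, overlapped as well (0.03, 95% interval -0.58 to 0.64), which leaves room for a change of up to 1.55-fold upward or to 0.667-fold.

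Among the GSTs, 11 of the 18 measured genes were higher and 7 lower in BDL, with a median of 0.11. BDL lay above sham without overlap in 5 of the 18, against 17.4% of all features, and below it in 3, against 19.3%. Together these are 44.4% of the GSTs, against 36.6% of all features. The pi class was lower. Gstp1 and Gstp2 are neighbouring copies on chromosome 19, abundant soluble GSTs of many epithelia. Their upstream bases are printed to show the likeness of the copies, with the single match to TGACTCA (AP-1 element, both strands, here read as TGAGTCA) in capitals. The promoters were 78.5% identical over 250 bases. Over the same length the element was also found in the promoters of Gstm5, Mgst2 and Ugt2b37, and 4.46% of all promoters hold it.
Gstp1, chr19:4037913-4038012, minus strand: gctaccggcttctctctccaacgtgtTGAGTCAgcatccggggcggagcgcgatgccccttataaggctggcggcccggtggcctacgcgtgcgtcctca
Gstp2, chr19:4042222-4042321, minus strand: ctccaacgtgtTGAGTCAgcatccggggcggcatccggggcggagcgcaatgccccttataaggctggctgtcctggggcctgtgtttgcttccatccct

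Gstp1 read 4.28 and 4.33 on the BDL arrays, against 5.52 and 4.49 on the sham arrays. Gstp2 read 6.52 and 6.51 on the BDL arrays, against 7.54 and 6.73 on the sham arrays. The BDL arrays were nearly equal, sham replicate 2 was just above them, and sham replicate 1 was far above. The means differed by -0.71 for Gstp1 (SE 0.39, 1.63-fold lower) and by -0.62 for Gstp2 (SE 0.32, 1.53-fold lower), and a second probe of each gave -0.71 and -0.75 with the same lack of overlap. Without sham replicate 1 the differences were -0.19 and -0.22. As 1 probe may read both transcripts, these values may not be separate measurements.

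The alpha class went the other way. Gsta3, which in mice protects against aflatoxin, read 4.29 and 4.38 in BDL, against 3.72 and 3.99 in sham. It was 1.40-fold higher without overlap (0.48, SE 0.21, 95% interval -0.07 to 1.03, limma adjusted p = 0.872), and its second probe gave 0.38 without overlap. Gsta4, which clears the lipid peroxidation product 4-hydroxynonenal, read 1.94 and 0.07 in BDL, against -0.53 and -0.07 in sham. BDL replicate 1 alone was high. The mean difference of 1.30 (SE 0.67) was 0.37 without that array, and Gsta4 was the only one of the 33 genes over 2-fold apart by its means, as were 4.65% of all features. Gsta2 overlapped between the groups (0.05, SE 0.21).

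Within the mu class, a cluster on chromosome 3, Gstm5 was the one gene whose representative probe separated the groups. It read 5.17 and 5.12 in BDL, against 4.68 and 4.50 in sham, with replicates closer to each other than the groups were. Gstm5 was 1.47-fold higher (0.56, SE 0.20, 95% interval 0.04 to 1.07, limma adjusted p = 0.872), and 0.46 to 0.65 with any 1 array left out. Its promoter holds 1 of the 3 matches to TGACNNNGC, the core of the antioxidant response element, found over 250 bases among the 32 genes with a RefSeq promoter (Gsta3 and Mgst1 hold the others), and 10.2% of all promoters hold this core.

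Gstm1, Gstm3 and Gstm4 were split by array rather than by operation. Gstm1 read 6.50 and 5.85 in BDL, against 6.68 and 6.04 in sham, and its second probe gave the same order of arrays. Gstm3 read 3.26 and 2.64 in BDL, against 3.15 and 2.48 in sham. Gstm4 read 2.81 and 2.20 in BDL, against 2.90 and 2.21 in sham. The gap between the arrays of 1 group, 0.61 to 0.68, was several times the difference between the groups (-0.18, 0.14 and -0.05). These 3 genes are close relatives and may share probe signal, and a dimmer second probe of Gstm4 gave another order, -0.41 and -0.27 in BDL, against 0.36 and -0.10 in sham (-0.47, no overlap). Gstm2 had the reverse order, 3.47 and 4.04 in BDL, against 3.74 and 5.01 in sham, with sham replicate 2 far above the rest on all 3 of its probes.

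The same split was found in Mgst1 and in the brighter probe of Sult1d1. Mgst1, a membrane-bound GST of the endoplasmic reticulum and mitochondria, read 3.66 and 2.61 in BDL, against 3.49 and 2.59 in sham. Sult1d1, a sulfotransferase for catecholamines in mice, read 5.24 and 4.74 in BDL, against 5.28 and 4.41 in sham. With Gstm1, Gstm3 and Gstm4, these made 5 of 33 genes (15.2%) in which the array numbered 1 was more than 0.5 above the array numbered 2 in both groups, as in 2.01% of all features. The limit of 0.5 was chosen after these values had been seen, and Sult1d1 passed it narrowly, with a gap of 0.502 in BDL. The differences of Mgst1 (0.10, 95% interval -1.21 to 1.41) and Sult1d1 (0.15, 95% interval -0.86 to 1.15) are known only within these wide bounds. A second, dimmer probe of Sult1d1 had another order of arrays, -1.73 and 0.10 in BDL, against 0.27 and -0.44 in sham (-0.73, with overlap).

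**Figure D2:**
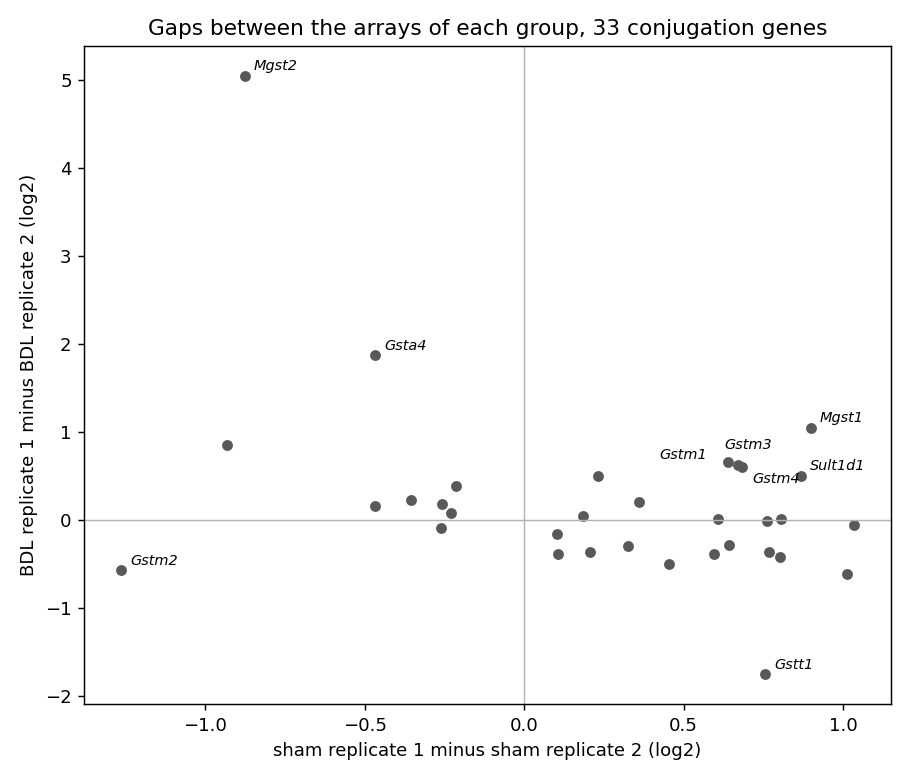
Each point is 1 of the 33 genes, with the gap between the sham arrays (replicate 1 minus replicate 2, log2) on the horizontal axis and the gap between the BDL arrays on the vertical axis. Gstm1, Gstm3, Gstm4, Mgst1 and Sult1d1 lie at upper right with replicate 1 high in both groups, while Mgst2 (5.04) and Gsta4 (1.87) have the widest BDL gaps in that direction.

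The remaining GSTs were mixed. Gstk1, a GST of mitochondria and peroxisomes, read 5.75 and 5.59 in BDL, against 5.08 and 5.55 in sham, a separation of 0.04 between the nearest arrays (0.35, SE 0.25). Gstz1, which isomerises maleylacetoacetate in tyrosine breakdown, read 6.51 and 6.01 in BDL, against 6.79 and 6.55 in sham (-0.41, SE 0.26). Both sets were just short of overlapping. Gsto1, a thioltransferase, read 4.74 and 3.88 in BDL, against 3.26 and 4.19 in sham, with overlap (0.59, SE 0.46).

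Gstt1, which handles small halogenated compounds, read 4.05 and 5.80 in BDL, against 5.72 and 4.96 in sham. Here BDL replicate 1 alone was low, and the difference of -0.41 was 0.47 without it. Gstt2 overlapped (0.11, SE 0.24). Mgst3 was 1.26-fold higher in BDL without overlap, at 4.40 and 4.17 in BDL, against 3.77 and 4.12 in sham, and its second probe gave 0.30.

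Mgst2, a membrane enzyme that can make leukotriene C4, had the widest spread of all. It read 0.02 and -5.02 in BDL, against -3.55 and -2.68 in sham, and only 1 of the 2 BDL arrays had it well above background. Its difference of 0.61 (SE 1.71) was -1.91 without BDL replicate 1 and 3.13 without BDL replicate 2. Urothelial markers, all 7 listed, had the same order of arrays in their summed signal, 59.4 and 1.37 in BDL, against 2.99 and 9.51 in sham. Adipocyte markers, 3 measured of 6 listed, were also highest in BDL replicate 1, with sums of 99.8 and 0.0844 in BDL, against 3.80 and 0.315 in sham. The adipocyte markers Adipoq, Plin1 and Lep were not retained, as they were not well above background on each array of either group. A high signal on BDL replicate 1 alone would not have passed this filter. Red blood cell markers, all 6 listed, were highest in BDL replicate 1 too, with sums of 1438 and 795 in BDL, against 733 and 584 in sham. Of the 6, 5 were higher in BDL without overlap, against 17.4% of all features. The part of these 3 lists in the high values of Mgst2 and Gsta4 on that array was not tested.

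**Figure D3:**
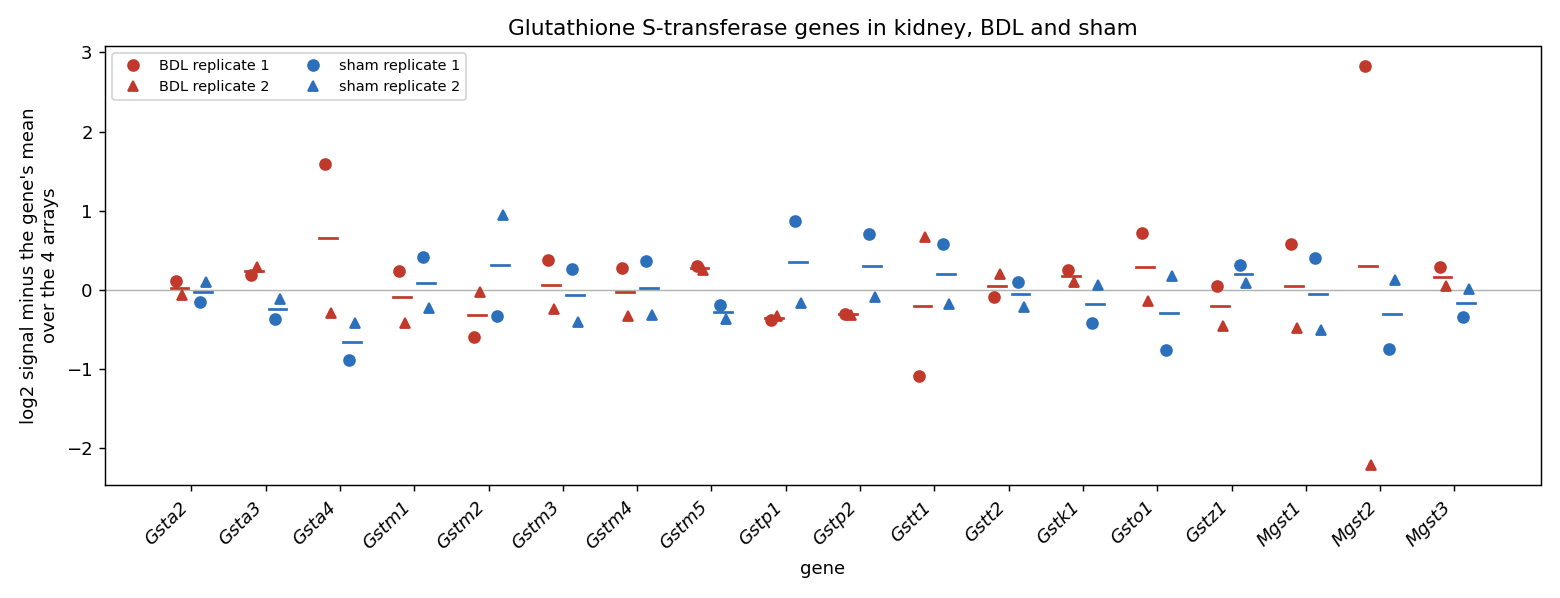
Log2 signal of the 18 measured GST genes on each array, minus the gene's mean over the 4 arrays, with BDL (red) left of sham (blue), circles for replicate 1, triangles for replicate 2 and bars for group means (n = 2). Gsta3 and Gstm5 lie higher in BDL with little spread, Gstp1 and Gstp2 lie lower in BDL with sham replicate 1 on top, and Mgst2 and Gsta4 are spread by BDL replicate 1.

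For the sulfotransferases and N-acetyltransferases the groups were close. Sult1a1, the main phenol sulfotransferase, read 2.93 and 2.54 in BDL, against 2.26 and 2.47 in sham (0.37, SE 0.24), and both of its probes separated the groups. Sult1c2 read 5.91 and 5.89 in BDL, against 6.38 and 5.78 in sham, with overlap. Nat8 acetylates cysteine conjugates, the last step of mercapturate formation. It read 7.95 and 7.74 in BDL, against 7.87 and 7.52 in sham (0.15, 95% interval -0.46 to 0.76). Nat2, an arylamine N-acetyltransferase, read 1.44 and 1.86 in BDL, against 2.20 and 1.39 in sham (-0.14, SE 0.35).

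Over all 33 genes the limma test found 0 past an adjusted p of 0.05, as it did for 0% of all features, and the adjusted p of these genes ran from 0.872 to 0.990. At an unadjusted p under 0.05 there were 3 genes, Ugt2b5, Ugt2b37 and Gstm5, against 5.62% of all features. BDL lay above sham without overlap in 7 genes (21.2%, and 17.4% of all features) and below it in 10 (30.3%, and 19.3% of all features), which makes 51.5% of these genes against 36.6% of all features. Of the 10 that were lower, 8 are the copies in the UGT2B cluster and the pi class. By group means 16 of 33 were lower in BDL, against 51.4% of all features, and the median difference was 0.03, against -0.01 over all features. The 95% interval lay within 2-fold either way for 10 of the 33 genes, so that for the others a change of 2-fold in at least 1 direction lay inside the interval.

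**Figure D4:**
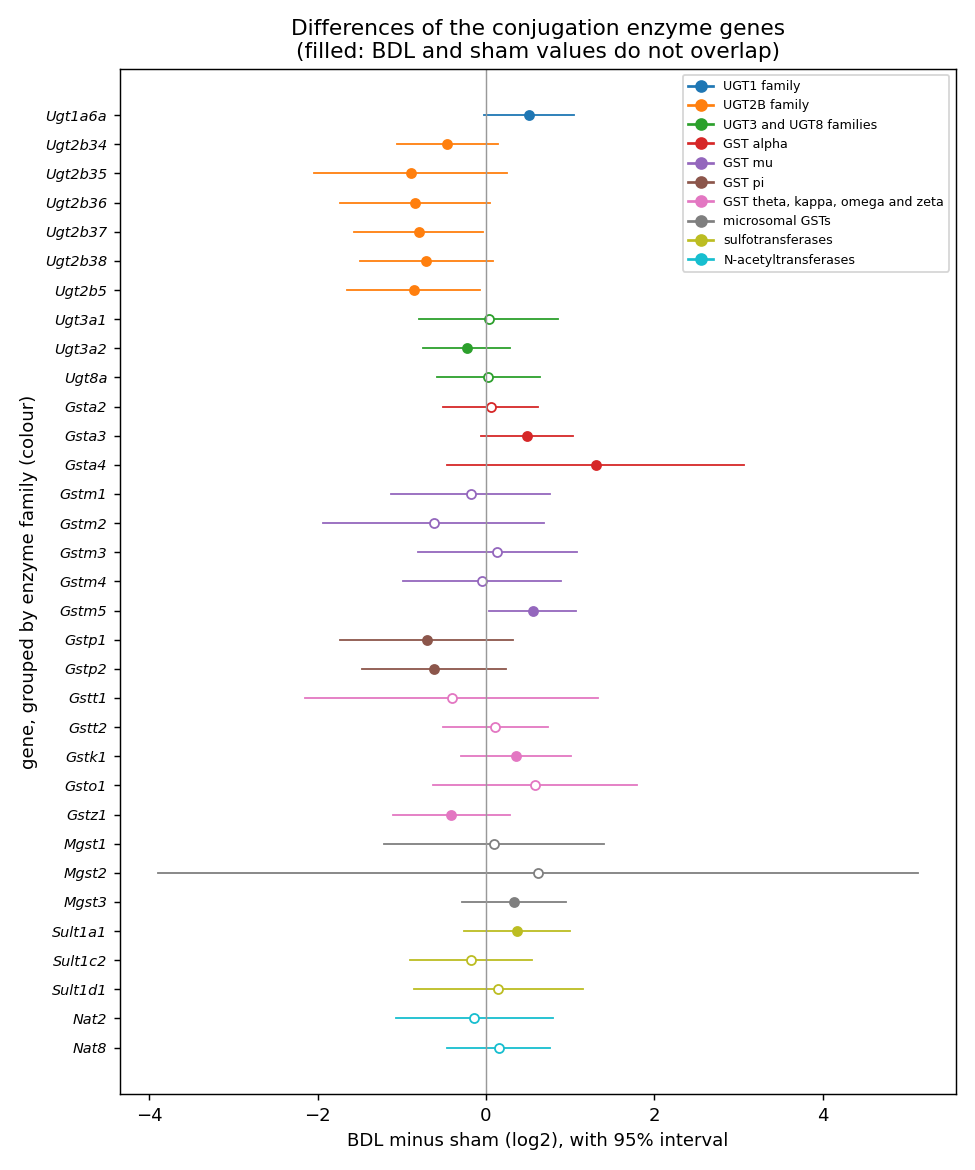
Difference BDL minus sham on the log2 scale with its 95% interval from limma for each of the 33 measured genes, coloured by enzyme family and filled where the values of the groups do not overlap. The Ugt2b and Gstp genes lie left of 0 and Gsta3, Gstm5 and Ugt1a6a right of it, while 3 intervals (Ugt2b37, Ugt2b5 and Gstm5) leave out 0.

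Lists of 102 further genes cover the supply of these enzymes, related enzymes and regulators, and 81 of these genes were measured. None passed the threshold in either direction (0 genes), and 8 had an unadjusted p under 0.05, against 5.62% of all features. The groups did not overlap in 34.6% of the 81, against 36.6% of all features. For glucuronidation, 5 of 6 genes listed under UDP-glucuronic acid supply and glucuronide breakdown were lower in BDL, against 51.4% of all features. The median of the 6 was -0.17, and 3 were lower without overlap, against 19.3% of all features. The smallest of the 5 lower differences were -0.03 and -0.02, both with overlap. Their median signal per array was 3.51 and 3.82 in BDL, against 4.89 and 3.91 in sham, for all 6 genes. Sham replicate 1 thus lay far above the other arrays. Ugdh, which makes UDP-glucuronic acid, read 4.09 and 4.16 in BDL, against 4.70 and 4.24 in sham, without overlap (-0.34, SE 0.24). Slc35b1 read 4.513 and 4.464 in BDL, against 5.088 and 4.517 in sham (-0.31, SE 0.27). Its groups did not overlap, but BDL replicate 1 and sham replicate 2 were nearly equal and sham replicate 1 was far above. Slc35d1, which carries UDP-glucuronic acid into the endoplasmic reticulum, overlapped (0.48, SE 0.34). Gusb, the glucuronidase that removes glucuronic acid, read 2.92 and 3.47 in BDL, against 6.61 and 3.58 in sham. Sham replicate 1 alone was high, behind a difference of -1.90 (SE 1.04). Gusb and Acsm3, below, are also on the list of androgen-dependent genes.

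For glutathione, 18 of 22 measured genes of its synthesis, recycling and mercapturate steps were lower in BDL, against 51.4% of all features. Their median was -0.15, and 0.11 without sham replicate 1. Without overlap, 5 were lower and 2 higher, which is 31.8% of the 22, against 36.6% of all features. Gclc, the catalytic subunit of the rate-limiting enzyme of glutathione synthesis, read 4.40 and 4.75 in BDL, against 5.43 and 5.16 in sham. It was 1.65-fold lower (-0.72, SE 0.23, limma adjusted p = 0.862). Ggct, which breaks down gamma-glutamyl peptides, was 1.90-fold lower (-0.93, SE 0.31). Cbs, the first enzyme of the route from homocysteine to cysteine, was 1.68-fold lower (-0.75, SE 0.27), and Ggt6, of the gamma-glutamyltransferase family, 1.64-fold higher (0.71, SE 0.33). The groups did not overlap for any of these 4.

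For sulfation, 6 genes of sulfate transport and activation were measured. Slc13a1, the sodium-sulfate cotransporter that reabsorbs sulfate at the brush border, read 5.34 and 5.13 in BDL, against 4.23 and 3.61 in sham. It was 2.49-fold higher (1.32, SE 0.28, limma adjusted p = 0.759), with both BDL arrays well above both sham arrays. Papss2, a PAPS synthase, read 6.94 and 6.79 in BDL, against 6.23 and 6.41 in sham, 1.46-fold higher (0.54, SE 0.20). Slc26a1, a sulfate exchanger of the basolateral membrane, read 4.02 and 4.12 in BDL, against 4.64 and 4.58 in sham, 1.45-fold lower (-0.54, SE 0.19). Papss1 overlapped (-0.42, SE 0.32). In these 6 measured genes, 2 were higher and 1 lower without overlap, against 17.4% and 19.3% of all features.

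Related enzymes outside the list of 36 showed no common direction. Of 4 other measured UGTs, 1 (Ugt2a3, -0.29, SE 0.21) separated the groups, which is 25% of them, against 36.6% of all features. Ugt2a1 differed by 0.29 (SE 0.39). Among 9 other GSTs and related membrane enzymes, with a median of 0.26, 7 were higher in BDL and 2 lower, against 51.4% of all features lower. Without overlap, 2 of the 9 were higher (22.2%), against 17.4% of all features, Gstt3 (0.26, SE 0.21) among them. Gstm7 (0.39), Ltc4s (0.40) and Gstp3 (0.40) overlapped. Other sulfotransferases were higher without overlap in 4 of 6, against 17.4% of all features, among them Sult5a1 (0.77, SE 0.37), Sult2a8 (0.35, SE 0.21) and Sult1b1 (0.22, SE 0.19), while Sult4a1 overlapped (-0.84, SE 0.60). Acyl and methyl conjugation genes were lower in 10 of 16, against 51.4% of all features. Without overlap, 3 were higher and 2 lower, which is 31.25% of the 16, against 36.6% of all features. Acsm3 (-0.95, SE 0.30) and Tpmt, which methylates thiopurine drugs (-0.77, SE 0.30), were lower without overlap, Nat8f1 was higher (0.35, SE 0.20) and Acsm1 overlapped (-0.85, SE 0.49).

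Of 12 regulators of conjugation genes, 2 were higher in BDL without overlap, against 17.4% of all features. Nr1i2, which encodes the pregnane X receptor, a sensor of bile acids and drugs, read -0.82 and -1.34 in BDL, against -2.64 and -2.08 in sham. It was 2.43-fold higher (1.28, SE 0.31, limma adjusted p = 0.762). Nfe2l2, which encodes NRF2, read 3.79 and 3.41 in BDL, against 3.23 and 3.25 in sham (0.36, SE 0.22). Ppara, which encodes a receptor for fatty acids, overlapped between the groups (0.25, SE 0.24).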

How the data were processed

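Kidney RNA labelled with Cy3 was hybridised to 1-colour arrays. The submitters' processing notes name Agilent Feature Extraction 11.0.1.1. Its deposited signal is an intensity from which background and a spatial trend had been removed, with no scaling from array to array, per the file headers. The authors' deposited value table holds the same intensities after division of every array by a number of its own, which was 739 and 939.8 in BDL and 709 and 844 in sham. It is linear and not centred, its column medians are 0.329 and 0.330 in BDL and 0.328 and 0.339 in sham, and what the divisors rest on is unknown.

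Here each array's 75th percentile was subtracted from its log2 signal. Control and outlier-flagged spots were left out and spots of a probe averaged, which left 55668 probes. Accessions were matched without versions to RefSeq names (GRCm38.p6), naming 27229 probes. The array grid lists mm9, so no gene coordinates were used, and the printed promoters carry their table's own build. Probes well above background on each array of BDL, of sham or of both were retained (32283). The brightest retained probe stood for a gene (24044 features). The groups were tested with limma 3.58.1 under R 4.3.3 (two-sided, Benjamini-Hochberg over all features), checked on simulated data. An exact permutation test cannot go below p = 0.333 here and was not used. Promoters were aligned with Biopython 1.88. The 4 arrays share 1 slide and 1 scan time, so neither could serve as a block. With 2 arrays per group, their number limits the precision.

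The genes and lists were chosen with earlier results of these data known. All 36 genes are named, and from each further list up to 4 genes with the smallest p, of which 1 is not reported here. A part of the rule that used protein identity was not applied, since protein and probe sequences were not used here. The normexp alternative used median signals.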

Additional observations from a re-analysis of the deposited data

How the results depend on the processing

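No alternative that kept all 4 arrays gave a feature, a conjugation gene or a further listed gene past the threshold (0 in each of 8 alternatives). The smallest limma adjusted p of the 33 genes over these alternatives was 0.783. Apart from leaving out arrays, 29 of 33 genes kept their sign. With normexp, Ugt3a1 was -0.023, Ugt8a -0.039, Gsta2 -0.021 and Ugt1a6a, the only UGT1 gene measured, 0.31. With the mean over probes, Sult1d1 was -0.29. With 1 array left out, 18 genes kept their sign, 17 of which could not turn because the groups do not overlap. The others ranged from -0.35 to 0.41 (Ugt3a1), -0.15 to 0.21 (Ugt8a), -0.075 to 0.18 (Gsta2), -0.51 to 0.14 (Gstm1), -1.25 to 0.013 (Gstm2), -0.20 to 0.47 (Gstm3), -0.39 to 0.29 (Gstm4), -1.28 to 0.47 (Gstt1), -0.051 to 0.27 (Gstt2), -0.42 to 0.63 (Mgst1), -1.91 to 3.13 (Mgst2), -0.49 to 0.12 (Sult1c2), -0.29 to 0.58 (Sult1d1), -0.54 to 0.26 (Nat2) and -0.030 to 0.33 (Nat8). Over the same fits the median of all 33 genes ranged from -0.29 to 0.13, and that of the UGT2B genes from -1.09 to -0.43. That of the microsomal GSTs ranged from -0.42 to 0.63, and that of the 81 further listed genes from -0.16 to 0.12. The UGT2B median was lowest in size without sham replicate 1, and the microsomal median was lowest without BDL replicate 1. The causes were not tested. Where an array is left out, the lone array of its group is assumed to vary like the other group. Gsta4 had no row in the deposited table, and Mgst2 was not well above background on all 4 arrays, so each lacks that alternative. With the replicate number as a block, 0 genes passed and the smallest adjusted p of the 33 genes was 0.825, against 0.872 without the block. Deviations of same-numbered arrays correlated with r = 0.06 over all features, and the labels do not say that a number marks a shared litter or day.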
